A study of Gallus gallus with 30 samples.

Results

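Myosin binding proteins and M-band proteins set the order of the thick filaments in striated muscle, and 6 of their genes were followed in chicken breast muscle: MYBPC1, MYBPC2, MYBPC3, MYBPH, MYOM1 and MYOM2. Members were all probe sets with 1 of these symbols in the platform annotation, a probe set being the group of short probes with which the array reads 1 transcript. This gave 10 probe sets of 5 genes. MYBPH was added through a RefSeq synonym, because its 1 probe set carries the symbol MYBPHL in the platform annotation. In all, 11 probe sets of 6 genes were examined among 38439 probe sets and 13009 genes.

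The comparison asked which genes differ between a fast growing and a slow growing breast muscle. Broilers were Arbor Acres (AA) males, a commercial line bred for meat, and layers were White Leghorn males, bred for eggs. Both lines received the same layer diet and housing and carried no other treatment. Pectoralis major, the large breast muscle, was taken at 5 ages after hatch, 1 day (1 d) and then 2, 4, 6 and 8 weeks (written as 2 w to 8 w). For each line and age 1 RNA pool was made from 5 randomly chosen males and put on 3 Affymetrix arrays, so that there were 5 broiler pools and 5 layer pools with 30 arrays. A pool is 1 replicate, and the SD of its 3 arrays is technical. With 1 pool of each line at each age, differences at a single age were not tested, and age and sampling occasion cannot be told apart.

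Myosin binding protein C (MyBP-C) lies in regular stripes along the thick filament, where it binds myosin and titin and reaches to actin. MYBPC1 encodes the slow skeletal form, MYBPC2 the fast skeletal form and MYBPC3 the cardiac form, and in the chicken the cardiac form is also known from early skeletal muscle. MYBPH encodes a shorter relative of MyBP-C, and the myomesins MYOM1 and MYOM2 link thick filaments to each other and to titin at the M-band, in the middle of the sarcomere. MYOM2, also called M-protein, is known from fast fibres, which make up most of the chicken breast.

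The tissue label was checked with markers. Of 8 listed skeletal muscle markers 6 were measured, and of 7 heart markers 5. The mean signal of the 6 skeletal muscle markers lay between 11.49 and 11.87 in the broiler pools and between 11.3 and 11.59 in the layer pools on the log2 scale. That of the 5 heart markers lay between 3.64 and 3.77 in the broiler pools and between 3.67 and 3.76 in the layer pools. Among the muscle markers PVALB was dim, with a mean of 3.78 (3.41 to 4.78 over the pools), while the means of the others were 12.12 to 13.76. The 30 arrays had medians between 4.08 and 4.19, and the R² between arrays of a pool was 95.4% to 98.7% over 30 pairs. All signals are log2 values from RMA, the authors' normalization, so that a difference of 1 is a change of 2-fold. In pooled muscle, fewer fibres with an RNA and less of that RNA in each fibre cannot be told apart.

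MYBPC3, the cardiac form, stood close in the lines at 1 d and was higher in broilers at every later age on 2 of its 3 probe sets. The brightest, Gga.1137.1.S2_at, had signals of 8.46 ± 0.14, 8.45 ± 0.16, 6.96 ± 0.19, 6.48 ± 0.08 and 5.74 ± 0.19 in broilers at the 5 ages from 1 d to 8 w (SD, n = 3 arrays of 1 pool). In layers it had 8.35 ± 0.08, 7.11 ± 0.28, 4.84 ± 0.30, 4.50 ± 0.01 and 3.46 ± 0.23. On this probe set, but not on the other 2, the broiler pool at 2 w was thus still at the level of 1 d. The layer pool at 2 w was already below it. From 2 w on, no array of a broiler pool overlapped with one of the layer pool of that age. The gap corresponded to 1.08-fold at 1 d, 2.52-fold at 2 w, 4.36-fold at 4 w, 3.96-fold at 6 w and 4.84-fold at 8 w.

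A second probe set of MYBPC3, Gga.1137.1.S1_at, had 7.70, 7.19, 5.61, 5.10 and 4.36 in broilers and 7.65, 5.73, 3.81, 3.49 and 2.77 in layers at the 5 ages, with an SD of 0.13 to 0.52. Its gaps ran from 0.04 at 1 d to 1.79 at 4 w. From 1 d to 2 w it changed by -0.51 in broilers and by -1.92 in layers. The probe sets Gga.1137.1.S2_at and Gga.1137.1.S1_at had a Pearson r of 0.986 over the 10 pools, which they read from the same hybridisations. The third probe set, Gga.1137.2.S1_a_at, gave another picture. It had 6.28, 5.06, 4.48, 4.08 and 4.09 in broilers and 5.51, 4.52, 4.06, 4.12 and 3.99 in layers, so that its gap was 0.76 at 1 d and 0.10 at 8 w. In broilers and layers alike this probe set came to a level near 4.1 by 6 w, and its r with the other 2 was 0.810 and 0.885. That level is near 4.14, the median of all probe sets, and layers on Gga.1137.1.S1_at lay below it from 4 w on. Whether low signals limit the gaps at these ages was not tested.

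**Figure D1:**
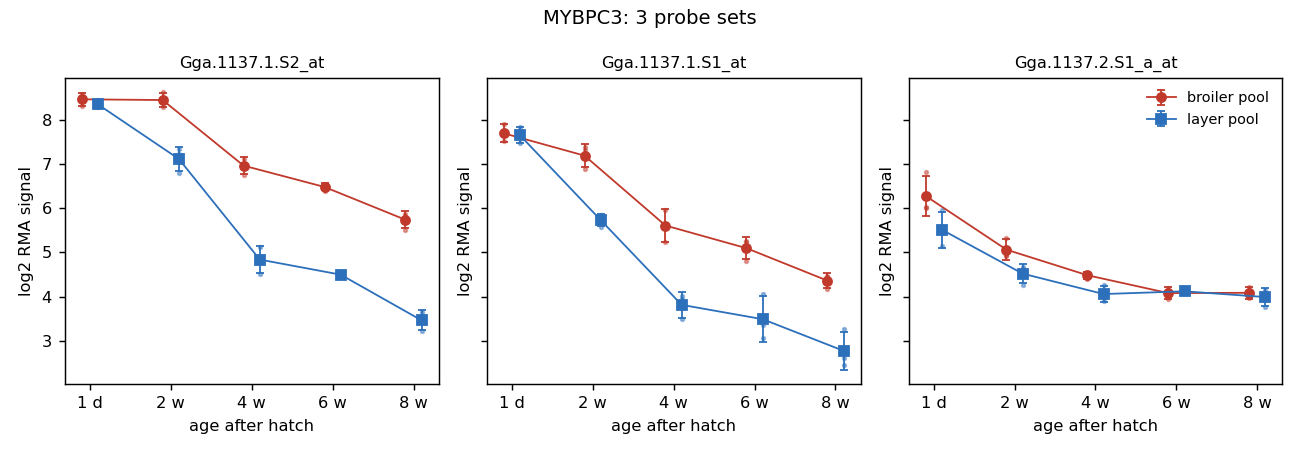
Log2 RMA signal of the 3 MYBPC3 probe sets against age after hatch, with broiler pools in red and layer pools in blue. Large symbols and bars are the mean and SD of the 3 arrays of a pool and small points the arrays. On the first 2 probe sets the lines part after 1 d, by 2.28 and 1.59 at 8 w. On the third the gap narrows, from 0.76 at 1 d to 0.10 at 8 w.

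The test of the line difference, broiler minus layer averaged over the 5 ages, was made with limma on the 10 pool means with Benjamini-Hochberg adjustment over all 38439 probe sets, and adjusted p under 0.05 is called. Both Gga.1137.1 probe sets of MYBPC3 were called. Gga.1137.1.S1_at was 2.46-fold higher in broilers (1.30 ± 0.22 SE on the log2 scale, 95% CI 0.80 to 1.80, limma adjusted p = 0.0291), beside 1.57 ± 0.27 (95% CI 0.95 to 2.18, adjusted p = 0.0305) for Gga.1137.1.S2_at. The third probe set had 0.36 ± 0.12 (95% CI 0.10 to 0.62) and did not pass (limma adjusted p = 0.187). Thus 2 of 11 member probe sets, both of 1 gene, were higher in broilers and none was lower, where 1.35% of all probe sets were called, 0.63% higher and 0.723% lower.

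At 1 d the lines lay close on both called probe sets of MYBPC3. Leaving out the pools of that age gave 1.93 ± 0.15 for Gga.1137.1.S2_at (limma adjusted p = 0.00151) and 1.61 ± 0.09 for Gga.1137.1.S1_at (limma adjusted p = 0.000229). Leaving out the pools of any later age instead gave 1.39 to 1.63 and 1.17 to 1.26, with adjusted p from limma of 0.0937 to 0.105 and 0.0918 to 0.106, so that each of these settings ended the call. The calls were also lost without the intensity trend of the variance prior (limma adjusted p = 0.0607 and 0.0577) and with a robust prior (limma adjusted p = 0.0987 and 0.0758).

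Averaged over the lines, MYBPC3 fell with age. The mean of 2 w to 8 w was 5.52-fold below 1 d on Gga.1137.1.S2_at (-2.46 ± 0.34, limma adjusted p = 0.000582), 7.55-fold below on Gga.1137.1.S1_at (-2.92 ± 0.28, limma adjusted p = 6.35e-05) and 3.03-fold below on Gga.1137.2.S1_a_at (-1.60 ± 0.14, limma adjusted p = 4.8e-05). It went on falling after 2 w, by 0.50 ± 0.07 per week on Gga.1137.1.S2_at (limma adjusted p = 0.0203) and by 0.45 ± 0.06 per week on Gga.1137.1.S1_at (limma adjusted p = 0.0124). These were 2 of 11 member probe sets with a falling slope and none with a rising one, against 0.354% of all probe sets called, 0.198% rising and 0.156% falling. The slope of Gga.1137.2.S1_a_at was -0.12 ± 0.03 (limma adjusted p = 0.164). Without the pools of 2 w the slopes were -0.33 and -0.29 (limma adjusted p = 0.885 and 0.864), and without those of 8 w they were -0.57 and -0.54 (limma adjusted p = 0.146 and 0.119), and a robust prior ended both calls as well (limma adjusted p = 0.108 and 0.0635).

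The change of MYBPC3 after 1 d was smaller in broilers on the Gga.1137.1 probe sets. On Gga.1137.1.S2_at the later ages lay 2.94-fold below 1 d in broilers and 10.4-fold below it in layers, and at 8 w the signal was 6.61-fold below that at 1 d in broilers and 29.6-fold below it in layers. The steps between successive ages were -0.02, -1.48, -0.48 and -0.74 in broilers and -1.24, -2.28, -0.34 and -1.03 in layers. The line gap thus opened between 1 d and 4 w, after which the steps of the lines were close. The change of the gap after 1 d was tested with a further term in limma. It was 1.57 ± 0.23 for Gga.1137.1.S1_at (95% CI 1.05 to 2.09, limma adjusted p = 0.0496), 1 of 11 members against 0.219% of all probe sets (0.148% upward, 0.0702% downward), and 1.82 ± 0.27 for Gga.1137.1.S2_at (95% CI 1.19 to 2.45, limma adjusted p = 0.0554), which missed the threshold. Gga.1137.2.S1_a_at ran the other way, with the later ages 3.61-fold below 1 d in broilers and 2.54-fold below it in layers, and its change of the gap was not called (-0.51 ± 0.21, limma adjusted p = 0.684).

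This test takes its spread from the later ages, as there is 1 pool of each line at 1 d, and the call of Gga.1137.1.S1_at was lost without array 1 of every pool (limma adjusted p = 0.170), without array 3 (0.0999) and without the pools of 4 w, 6 w or 8 w (0.0606, 0.110 and 0.0745). It was lost too with quantile normalization (limma adjusted p = 0.0611), with dim probe sets left out (0.146) and without the intensity trend (0.126). In the same test and direction 3 of 6 cartilage markers were called, COL9A3 (2.82), ACAN (2.04) and MATN3 (4.06), and the list mean was 5.65 in the layer pool of 1 d against 3.96 to 4.22 in the 9 other pools. MYBPC3 on Gga.1137.1.S1_at stood at 7.70 in the broiler pool of 1 d and at 7.65 in that layer pool. The part of the cartilage signal in the change of the gap was not tested. Whether the slopes after 2 w differed between the lines was tested as well. No member was called there, where 0.0026% of all probe sets were, and Gga.1137.1.S2_at had a slope difference of 0.13 ± 0.05 per week with an unadjusted p of 0.0392 in limma, the 1 member under 0.05 before adjustment.

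Other isoforms of heart and early muscle were examined beside MYBPC3. Of 9 such genes, each measured, none was called between the lines. Those with the greatest differences were CSRP3, a muscle LIM protein, with -1.69 ± 0.55 (limma adjusted p = 0.193), TNNI1, slow troponin I, with -0.70 ± 0.36 (limma adjusted p = 0.430), and ANKRD1, an ankyrin repeat protein known from heart, with 0.70 ± 0.17 (limma adjusted p = 0.0942). The list median was 0.13 against 0.00394 over all probe sets. ACTC1, cardiac actin, was the 1 gene of the list with a called slope after 2 w, falling by 0.45 per week (limma adjusted p = 0.0079), and is named for that value. With age, 3 genes of the list were lower and 2 higher at the later ages, and they were likewise named after their values were seen. Lower were TNNT2 (-1.20), cardiac troponin T, TNNI1 (-1.93) and CSRP3 (-5.27), and higher were TNNC1 (2.84), the troponin C of slow and cardiac muscle, and ANKRD1 (0.79). The 5 heart markers had a mean of 3.67 to 3.77 in the pools of 2 w to 8 w and of 3.64 to 3.67 in those of 1 d, 1 of the 5, GATA4, being called higher at the later ages (0.24, limma adjusted p = 0.0379) and none lower.

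MYBPC1, the slow skeletal form, was the member with the deepest fall after 1 d, and after that its pools went up and down without a common direction of the lines. Its brightest probe set, Gga.3063.1.S1_at, had 11.42 ± 0.02, 7.57 ± 0.10, 7.10 ± 0.07, 4.58 ± 0.02 and 7.53 ± 0.14 in broilers and 10.88 ± 0.17, 6.66 ± 0.08, 7.53 ± 0.05, 7.28 ± 0.12 and 5.54 ± 0.15 in layers at the 5 ages (SD, n = 3 arrays of 1 pool). The lowest pool was that of broilers at 6 w. At all 5 ages the arrays of the lines did not overlap, yet the sign of the gap changed: broilers were 1.45-fold higher at 1 d, 1.88-fold higher at 2 w, 1.35-fold lower at 4 w, 6.47-fold lower at 6 w and 3.96-fold higher at 8 w.

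The other MYBPC1 probe sets followed this course on lower signals. GgaAffx.8106.1.S1_s_at had 10.25, 6.09, 5.51, 3.35 and 6.18 in broilers and 10.07, 4.92, 6.47, 5.37 and 4.34 in layers. Gga.10173.1.S1_s_at had 8.18, 3.51, 3.33, 2.37 and 3.75 in broilers and 8.13, 3.08, 4.50, 3.18 and 2.36 in layers. Gga.10173.1.S1_at had 5.99, 3.15, 3.07, 2.85 and 3.24 in broilers and 6.01, 2.82, 3.38, 2.99 and 2.63 in layers. On each of the 4 probe sets the broiler pool was higher at 2 w and 8 w and lower at 4 w and 6 w. The arrays of the lines overlapped, however, at 2 w on Gga.10173.1.S1_s_at and at 2 w, 4 w and 6 w on Gga.10173.1.S1_at. After 1 d these 2 probe sets lay mostly below 4.14, the median of all probe sets. Whether low signals limit their gaps and falls was not tested. Over the 10 pools r among the 4 was 0.931 to 0.991, over pools that share the drop after 1 d.

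**Figure D2:**
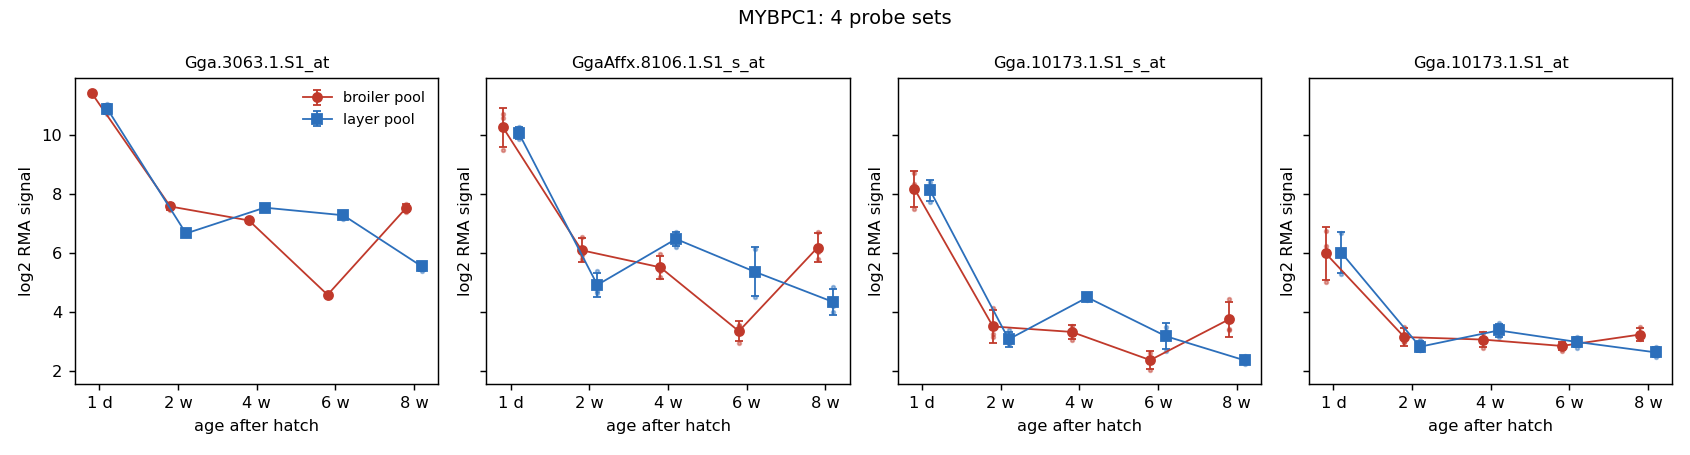
Log2 RMA signal of the 4 MYBPC1 probe sets against age after hatch, with broiler pools in red and layer pools in blue. Large symbols and bars are the mean and SD of the 3 arrays of a pool and small points the arrays; every probe set is highest at 1 d, and after 2 w the lines cross, and the broiler pools reach their lowest signal at 6 w.

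Averaged over the ages, MYBPC1 showed no line difference that passed the test. Gga.3063.1.S1_at had 0.06 ± 0.53 (95% CI -1.12 to 1.25, limma adjusted p = 0.977), an interval wide enough for a difference of more than 2-fold either way. For the other probe sets the values were 0.05 ± 0.47, -0.02 ± 0.30 and 0.09 ± 0.12 (limma adjusted p = 0.980, 0.986 and 0.814). The change with age was far larger than this spread. Relative to 1 d, the later ages were 21.4-fold lower on Gga.3063.1.S1_at (-4.42 ± 0.66, limma adjusted p = 0.000886), 29.5-fold lower on GgaAffx.8106.1.S1_s_at (limma adjusted p = 0.000252), 29.7-fold lower on Gga.10173.1.S1_s_at (limma adjusted p = 2.08e-05) and 7.91-fold lower on Gga.10173.1.S1_at (limma adjusted p = 1.83e-06). In broilers alone the fall on Gga.3063.1.S1_at was 26.4-fold, and in layers alone 17.5-fold. Over 2 w to 8 w the slopes lay between -0.16 and -0.02 per week, and none was called (limma adjusted p = 0.731 to 0.844).

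Of the slow fibre genes fixed beside MYBPC1, 8 of 9 were measured, none was called between the lines, and the list median was -0.81. The greatest differences were those of CSRP3, given above, MB, the oxygen store myoglobin, with -1.33 ± 0.49 (limma adjusted p = 0.242), and MYL3, a slow myosin light chain, with -1.17 ± 0.53 (limma adjusted p = 0.363). With age, 5 of these genes were lower and 1 was higher at the later ages. Lower were TNNI1 (-1.93), MYL3 (-3.52), CSRP3 (-5.27), ATP2A2 (-1.75), the slow fibre calcium pump, and TPM3 (-1.03), slow tropomyosin, while TNNC1 (2.84), slow troponin C, was higher. The probe set annotated as TNNC1 had a mean signal of 12.4, where the other genes of the list had 3.47 to 7.66. Which transcript it reads was not tested. The list median was -1.39 against 0.05 over all probe sets, and these genes were named after their values were seen. Of the fast fibre genes, 7 of 9 measured, 3 were higher and none lower at the later ages, with a list median of 0.26: TNNI2 (0.40) and TNNT3 (0.30), fast troponins, and MYL1 (0.27), a fast myosin light chain, named in the same way. MYLPF, described below, was the 1 gene of that list called between the lines.

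MYBPC2, the fast skeletal form, was close to level from 2 w on. It had 11.30 ± 0.41, 12.00 ± 0.12, 12.26 ± 0.04, 12.16 ± 0.29 and 12.22 ± 0.07 in broilers, against 11.83 ± 0.10, 12.22 ± 0.10, 12.25 ± 0.03, 11.65 ± 0.85 and 12.25 ± 0.09 in layers at the 5 ages (SD, n = 3 arrays of 1 pool). The lowest pool was that of broilers at 1 d, where 1 array stood at 10.83 beside 11.49 and 11.58. The wide SD of the layer pool at 6 w came from 1 array at 10.67 beside 12.06 and 12.22. The lines did not overlap at 1 d, where broilers were 1.44-fold lower, and overlapped at the other 4 ages. No line difference passed the test (-0.05 ± 0.12, 95% CI -0.33 to 0.23, limma adjusted p = 0.914).

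At the later ages MYBPC2 was 1.48-fold higher than at 1 d (0.56 ± 0.15, limma adjusted p = 0.0199). This call was lost without array 1 of every pool (0.40, limma adjusted p = 0.139). The change was 1.82-fold in broilers and 1.20-fold in layers, and the difference between these, 0.60 ± 0.23, did not pass (limma adjusted p = 0.635).

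MYBPH, the short relative of MyBP-C, rose after 1 d. Its signals were 10.48 ± 0.10, 11.56 ± 0.10, 11.51 ± 0.16, 11.45 ± 0.07 and 11.11 ± 0.33 in broilers and 10.47 ± 0.12, 12.09 ± 0.12, 11.83 ± 0.13, 11.44 ± 0.33 and 11.81 ± 0.22 in layers (SD, n = 3 arrays of 1 pool). Both 1 d pools lay below all later pools. Broilers were 1.44-fold, 1.25-fold and 1.62-fold lower than layers at 2 w, 4 w and 8 w, where the arrays did not overlap, and at 1 d and 6 w the lines stood at the same level. Over the ages the line difference was -0.31 ± 0.11 (95% CI -0.56 to -0.06), which did not pass after adjustment (limma adjusted p = 0.234). The mean of the later ages was 2.17-fold above 1 d (1.12 ± 0.14, limma adjusted p = 0.000297), with 1.89-fold in broilers and 2.50-fold in layers, and the difference of these changes, -0.40 ± 0.25, was not called (limma adjusted p = 0.860).

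MYOM2, the fast fibre M-protein, varied little between pools. It had 12.16 ± 0.10, 12.38 ± 0.06, 12.17 ± 0.04, 12.26 ± 0.01 and 12.23 ± 0.04 in broilers and 12.14 ± 0.04, 12.29 ± 0.0003, 12.00 ± 0.05, 12.16 ± 0.05 and 11.98 ± 0.02 in layers (SD, n = 3 arrays of 1 pool). Broilers were higher at each age, by 0.02, 0.08, 0.17, 0.09 and 0.25, and from 2 w on the arrays of the lines did not overlap. The average difference of 0.12 ± 0.06 (95% CI -0.01 to 0.26, limma adjusted p = 0.397) did not pass the test, and neither did the change after 1 d (0.04 ± 0.07, limma adjusted p = 0.713).

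MYOM1, the myomesin of striated muscle at large, had signals of 2.20 to 2.34 in the broiler pools and 2.19 to 2.35 in the layer pools. This is within the dimmest 3.10% of all probe sets by mean signal, and its arrays overlapped at all 5 ages. Its line difference was -0.01 ± 0.04 and its change after 1 d 0.07 ± 0.05 (limma adjusted p = 0.974 and 0.342). At so low a signal a change of the transcript may not be detectable with this probe set.

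**Figure D3:**
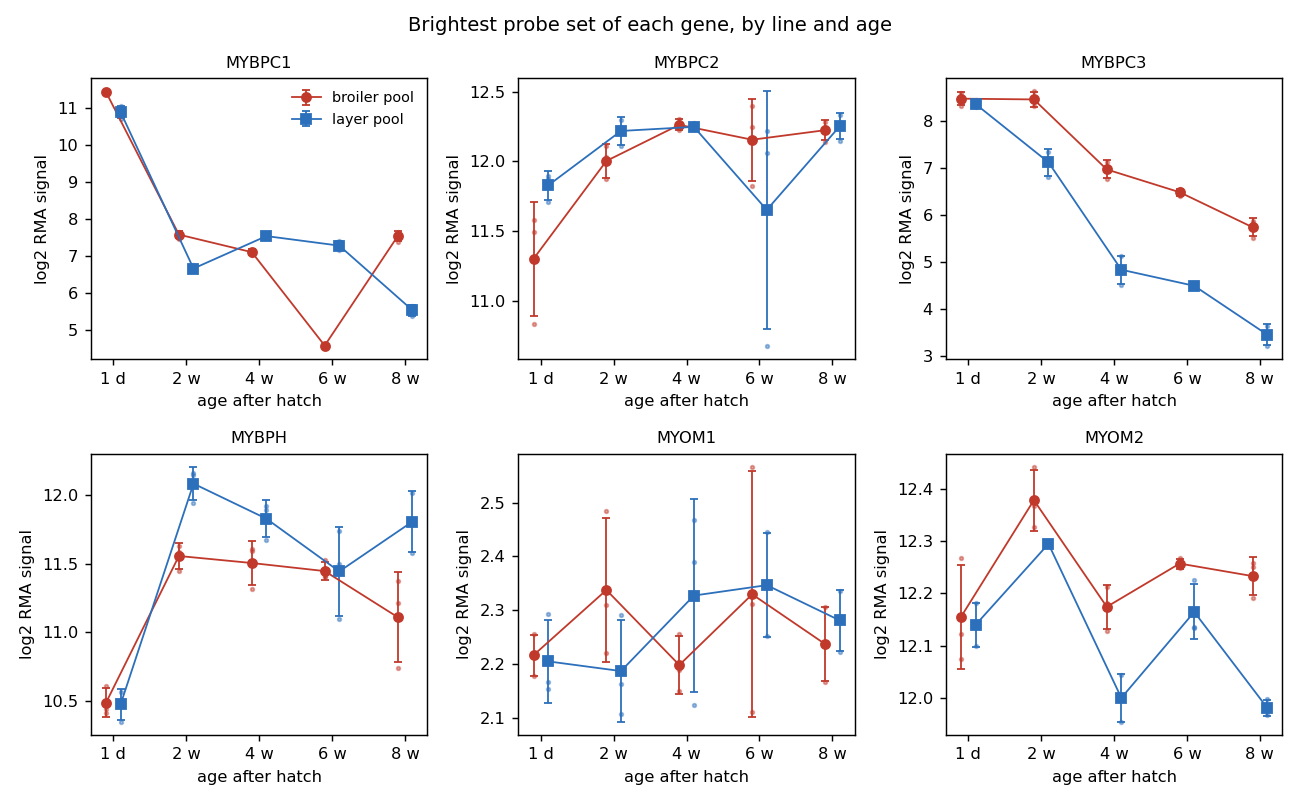
Log2 RMA signal of the brightest probe set of each of the 6 genes against age after hatch, with broiler pools in red and layer pools in blue, each panel on its own scale. Large symbols and bars are the mean and SD of the 3 arrays of a pool and small points the arrays; MYBPC1 and MYBPC3 are highest at 1 d, MYBPH is lowest there, and MYOM2 stays between 11.98 and 12.38.

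Set side by side, the arrays of the lines did not overlap for 3, 7, 8, 6 and 8 of the 11 member probe sets at the 5 ages from 1 d to 8 w, where this held for 19.1%, 15.6%, 19.4%, 18.1% and 21.3% of all probe sets. The sign of the gap was the same at all ages for 3 member probe sets, those of MYBPC3 with the Gga.1137.1 label and that of MYOM2, against 13% of all probe sets. On Gga.3063.1.S1_at of MYBPC1 the arrays were apart at each age, but with both signs. The median line difference of the 11 was 0.06 and that of all probe sets 0.00394.

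**Figure D4:**
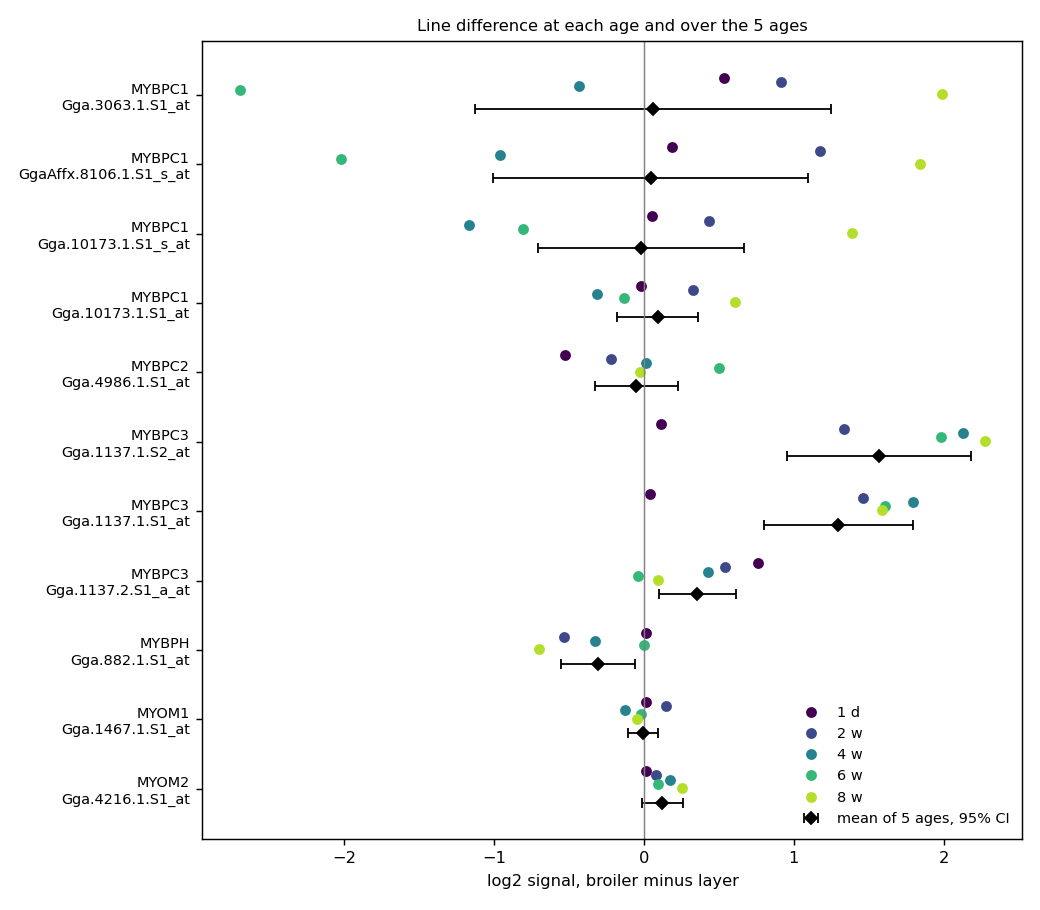
Difference in log2 signal, broiler minus layer, for each of the 11 member probe sets, with a dot for each age and a black diamond with its 95% confidence interval for the mean of the 5 ages. The 2 upper MYBPC3 probe sets lie right of 0 at 1.57 and 1.30, and the dots of MYBPC1 spread from -2.69 to 1.99 around a mean of 0.06.

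After 1 d, 7 member probe sets were lower and 2 were higher at an adjusted p under 0.05, where 35% of all probe sets were called, 17.9% lower and 17.1% higher. The 7 were the 4 of MYBPC1 and the 3 of MYBPC3, and the 2 were MYBPC2 and MYBPH. Probe sets of a gene read 1 gene and are not independent of each other. The median absolute change was 2.46 for the members and 0.18 for all probe sets. Over the 10 pools the r of MYBPH was -0.889 to -0.803 with the MYBPC1 probe sets, which share the 1 d pools with it as extremes. With MYBPC2 the r was 0.705. There the broiler pool of 1 d was lowest (11.30), and the layer pool of 6 w (11.65) lay below the layer pool of 1 d (11.83). Of the isoforms of MyBP-C, the slow and the cardiac form thus fell after 1 d. The fast form was called higher, with a change of 1.82-fold in broilers and 1.20-fold in layers. That call was lost without array 1 of every pool (0.40, limma adjusted p = 0.139), so a rise of the fast form is less certain.

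**Figure D5:**
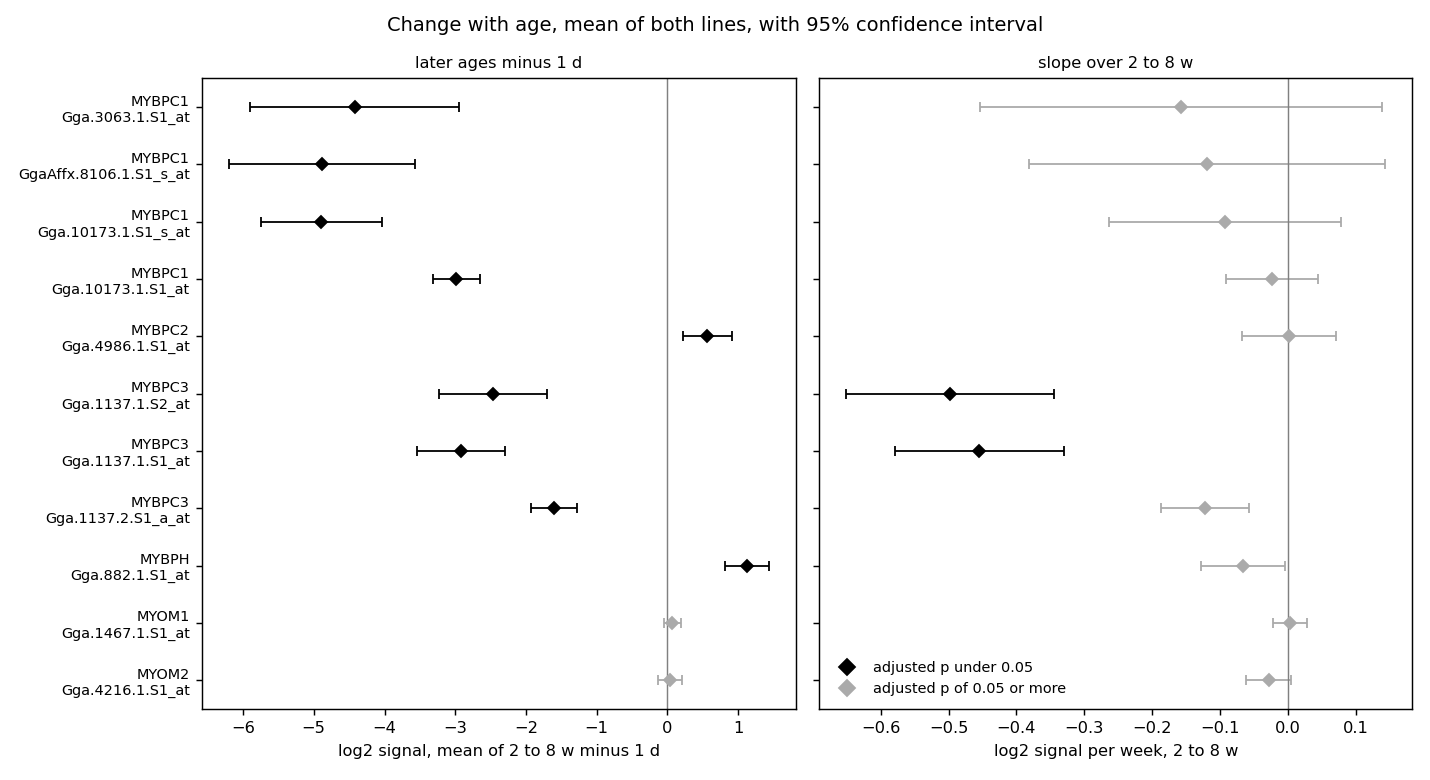
Change with age of the 11 member probe sets, averaged over the lines, with 95% confidence intervals, as the mean of 2 w to 8 w minus 1 d in log2 signal on the left and as the slope over 2 w to 8 w in log2 signal per week on the right. Black marks an adjusted p under 0.05 and grey one of 0.05 or more; 9 probe sets are black on the left, and on the right 2 of MYBPC3, at -0.50 and -0.45.

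Markers of other cells moved with age as well. The mean of 5 fibroblast markers was 11.1 to 11.61 in the pools of 2 w to 8 w and 12.12 to 12.15 in those of 1 d, with 5 of 5 called lower, and 2 of 2 measured nerve markers were called lower, with a mean of 5.56 to 6.94 against 8.21 to 8.40. Of 3 immune markers 2 were called higher, with a mean of 7.67 to 8.71 at the later ages against 6.62 to 7.01 at 1 d. The mean of 6 cartilage markers was 4.03 to 4.21 in the broiler pools and 3.96 to 5.65 in the layer pools, the highest being the layer pool of 1 d. Of 4 listed blood markers 1 was found by its symbol, HBAD, an alpha globin. It was 7.94 to 10.38 at the later ages against 9.37 to 9.92 at 1 d. HBAD was called lower after 1 d (-0.87 ± 0.21, limma adjusted p = 0.0125) and with a falling slope after 2 w (-0.26 ± 0.04 per week, limma adjusted p = 0.0474), as MYBPC3 was. HBA1, a globin gene outside the list, had 9.49 to 11.44 at the later ages and 11.82 and 11.86 at 1 d. The part of these cells in the changes of the members with age was not tested.

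Among 12 partners of the M-band and of titin there, 10 were measured. FHL2, a LIM protein that binds titin, was the 1 gene called between the lines, with -2.64 ± 0.37 (limma adjusted p = 0.0151), a mean of 5.90 in broilers and 8.54 in layers. This line difference was no longer called when the pools of any 1 age after 1 d were left out (limma adjusted p = 0.0528 to 0.0677), with a robust prior (0.0962) or without the age term (0.114). Without the pools of 1 d it was -3.18 ± 0.11 and stayed called (limma adjusted p = 2.24e-05). The change of the FHL2 gap after 1 d was -2.72. MYOM3, the third myomesin, had a line difference of 0.13 ± 0.26 (limma adjusted p = 0.890) and was lower at the later ages (-2.04 ± 0.32, limma adjusted p = 0.00131). Its probe set was dim, with a mean of 3.43, above 33.5% of all probe sets, and pools of 2.69 to 5.80. The changes of MYOM2 and of MYOM1, whose probe set was dimmer still, did not pass. Also lower at the later ages were TRIM63 (-1.04) and TRIM55 (-0.78), ubiquitin ligases of the M-band, and NBR1 (-0.47), an autophagy receptor. TRIM54 (0.68), a ligase of the same family, was higher. These 5 were named after their values were seen, and the list median was -0.24 against 0.05 over all probe sets.

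Of the genes of the thick filament and its assembly, 16 of 19 were measured. MYLPF, the fast regulatory light chain, was higher in broilers, with means of 12.55 in broilers and 11.70 in layers (0.85 ± 0.08, limma adjusted p = 0.00434), and SMYD1, a methyltransferase that helps to build myosin filaments, was lower, with 9.50 in broilers and 10.16 in layers (-0.66 ± 0.13, limma adjusted p = 0.0452). The call of SMYD1 was lost whenever the pools of any 1 age were left out (limma adjusted p = 0.0552 to 0.106), with quantile normalization (0.0515), without the intensity trend (0.0654), without array 2 of every pool (0.0501) and without the age term (0.276), and that of MYLPF without the age term (0.0952). The median of the list was 0.04. After 1 d, 5 of these genes were higher and 5 lower: MYH1E (8.62), HSP90AA1 (1.89), UNC45B (1.41), MYLK2 (1.33) and MYL1 (0.27) were higher, and MYH1D (-5.09), MYL3 (-3.52), MYH1B (-2.64), MYH1C (-2.36) and MYL2 (-1.50) were lower, all named after their values were seen. UNC45B and HSP90AA1 encode chaperones of myosin, and the MYH1 genes encode neighbouring, closely similar fast myosin heavy chains, so their probe sets may read more than 1 of them.

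The genes with the course most like each member were found by Pearson r over the 10 pools, among 2037 to 2040 probe sets with a signal above the median and a fixed minimum of variation, as a description. For MYBPC1 they were PDGFD, a growth factor, on 2 probe sets (r = 0.977 and 0.961) and FOXP1, a transcription factor (0.962). PDGFD had 9.28, 7.82, 7.33, 6.73 and 7.57 in broilers and 8.63, 7.46, 7.48, 7.45 and 6.94 in layers, and so shared the low broiler pool at 6 w and the low layer pool at 8 w. For MYBPC3 they were the histone gene HIST1H111L (0.960), ASPM, a spindle protein of dividing cells (0.908), and FNDC1 (0.906). ASPM had 6.05, 5.86, 5.00, 4.95 and 4.62 in broilers and 5.79, 5.29, 4.85, 4.95 and 4.27 in layers, and, unlike MYBPC3, its lines were level at 6 w. MYBPC2 was most like RXRA (0.958), a nuclear receptor, CUL3 (0.943) and ASB14 (0.924), and MYBPH most like PPP4R2 (0.962), CCDC126 (0.955) and DIO2 (0.954), the enzyme that activates thyroid hormone. For MYOM2 the values were lower, with MME at 0.832, LSG1 at 0.801 and TUSC3 at 0.778, and for MYOM1, which hardly varied, SCRIB stood at 0.737, LIPA at 0.688 and HSPB9 at 0.669. All pools share their arrays across genes, and the step between 1 d and the later ages is common to most of these courses.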

How the data were processed

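Pectoralis major RNA of both lines at 5 ages was measured on 30 arrays, 3 for each pool of 5 males. The authors deposited log2 signals that they had made with RMA. Present calls from MAS5 were not used here. No version of RMA or MAS5 is named in the sources. After removal of 96 control probe sets from 38535 no further normalization or filter was applied. Of the rest, 27168 had 1 gene symbol in the platform annotation, 177 several and 11094 none, and 26853 had a gene found in a RefSeq table (assembly GRCg7b) that was used for names only. Positions and sequences of the probe sets were not analysed here. The number of arrays and pools limits the precision.

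The mean of the 3 arrays was taken for each pool. A linear model with line and age (as a factor) was fitted to these 10 means in limma 3.58.1 (R 4.3.3). Variances were moderated by eBayes with an intensity trend, and p-values were adjusted over 38439 probe sets by the Benjamini-Hochberg method. From this fit came the line difference, the mean of 2 w to 8 w minus 1 d, and the slope over 2 w to 8 w. Terms of line by later age and line by week were added to test changes of the line gap. The methods of the study treat the 30 arrays as samples, which was run as an alternative. Array numbers were not taken to pair the pools, and a fit with the number as a block was an alternative.

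Named were all member probe sets, the 3 probe sets most like each gene (mean above the median of 4.14, SD over pools of at least 0.5, 1 symbol), and list genes with an adjusted p under 0.05 between the lines or else the 3 with the greatest difference. Other list genes are stated as named after their values were seen. Lists took the brightest probe set of a gene. The members and lists were chosen with earlier results of these data known. The fits were tested on simulated data. Alternatives were the unit of replication, quantile normalization, a filter on dim probe sets, other priors of the variance, no age term, and leaving out each array number and each age.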

Additional observations from a re-analysis of the deposited data

Results flagged for a closer look

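Among 22 groups of 5 pools, 1 for each line and member probe set, 4 held a pool far from the others by Dixon's ratio. Among replicates chance flags about 1 in 20 groups, but each group here spans the 5 ages, so that rate does not apply. All 4 were pools of 1 d, on probe sets already called for their change after 1 d, so the flags add no separate result. On the MYBPC1 probe set Gga.10173.1.S1_s_at the broiler pool stood at 8.18 (ratio 0.763), and on Gga.10173.1.S1_at the broiler pool stood at 5.99 (ratio 0.877) and the layer pool at 6.01 (ratio 0.780), each above the later pools. The broiler pool of MYBPC2 stood at 11.30 (ratio 0.731), below the later pools. That pool held 1 array at 10.83 beside 11.49 and 11.58, so its low mean rests in part on 1 array.

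On 1 of its 3 probe sets MYBPC3 changed differently in the lines after 1 d by the test of that difference. On Gga.1137.1.S1_at the gap, broiler minus layer, was 1.57 larger at the later ages than at 1 d (limma adjusted p = 0.0496 over 10 pools), and it was larger at each of the 4 later ages. The value is close to the threshold, and the call was lost under several of the alternatives given above. The change of the gap was not called on Gga.1137.1.S2_at (1.82, limma adjusted p = 0.0554). On Gga.1137.2.S1_a_at it had the other sign and was not called (-0.51, limma adjusted p = 0.684).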

How the results depend on the processing

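Of 391 values under the alternatives, some were estimates of called results and the others counts of called members, among them counts of 0. In 311 an estimate kept its direction and side of the threshold, or a count stayed near that reported. In 46 an estimate lost its call, and in 34 a count moved. No estimate of a called result reversed, and a count has no direction to reverse. For MYBPC3 the line difference was positive throughout. The count of member probe sets higher in broilers, 2 as reported, was 0 without an intensity trend, with a robust prior, without the age term and without the pools of any 1 age after 1 d. Taking the 30 arrays as samples, or with the pool as a random block, it was 4, with 1 lower. The block fit estimated a correlation within pools of 0.0534, so it stayed close to taking the arrays as independent. For Gga.1137.1.S2_at the SE was 0.156 with the block, 0.154 with the arrays as samples and 0.272 on the pool means. Fits over the 30 arrays count technical replicates, and their higher counts add no support. The adjusted p of the MYBPC3 probe sets under the settings that ended the call was 0.0577 to 1.00. The cause of the lost calls was not tested. Each setting that left out an age had fewer pools, also the one without 1 d, where the 2 calls stayed.

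The count higher after 1 d, 2 as reported, was 1 to 2 when 1 array number was left out. The count with a falling slope, 2 as reported, was 5 with the 30 arrays as samples, 4 with the pool as a random block, 1 without the trend, and 0 with the robust prior or without the pools of 2 w or 8 w. The count whose gap rose after 1 d, 1 as reported, was 2 with the 30 arrays as samples, the pool block, the robust prior or without the pools of 2 w, was 0 with quantile normalization, only probe sets above the median, no trend, or without the pools of 6 w or 8 w, and was 0 to 1 when 1 array number was left out. For the slope difference, 0 as reported, 1 member was called without the pools of 2 w.

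Array numbers are shared by the pools. Deviations from the pool mean had a median r of 0.142 between same-numbered arrays of different pools (-0.386 to 0.527, 135 pairs) and of -0.0692 between arrays of different number (-0.459 to 0.497, 270 pairs). Because the deviations of a pool cancel, the second value follows largely from the first and is no separate comparison. By the r of same-numbered arrays a shared deviation by number may be present, but it did not hold in every pair. The labels give the number no meaning, so the numbers were not taken to pair the pools. With the number as a replicate block over the 30 arrays, 4 members were higher and 1 lower between the lines, 5 had a falling slope and 2 a rising gap. Of 41 member results that were not called, 8 passed under at least 1 alternative, most with the arrays as samples. Of the same 41, 23 changed sign under at least 1 alternative, with 50 sign changes among 583 values. Over the whole table the line difference had 520 calls as reported, 3996 with the 30 arrays as samples and 17 without the age term. The pools, 1 for each line and age, limit each test, and the dim MYOM1 probe set limits what could be seen of that gene.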

Other observations

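Leaving out 1 d, an alternative chosen after seeing the data, the likeness over the 8 pools of 2 w to 8 w gave other leading genes for MYBPC1: AGTR1, the angiotensin receptor gene (r = 0.966), and FKBP5, a co-chaperone of steroid receptors that glucocorticoids are known to induce, on 2 probe sets (r = 0.876 and 0.874). FKBP5 on Gga.4750.1.S1_s_at had 8.94, 7.07, 3.77 and 8.04 in broilers and 8.79, 8.46, 8.48 and 6.83 in layers at 2 w, 4 w, 6 w and 8 w. AGTR1 had 6.96, 6.49, 5.01 and 6.73 in broilers and 6.46, 6.99, 6.89 and 6.04 in layers. The broiler pool of 6 w was the lowest of the 8 in MYBPC1, FKBP5 and AGTR1, and the layer pool of 8 w was the next lowest in each. These pools are 1 hybridised RNA mixture each, and no test was made.

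For MYBPC3 the leading genes over the same 8 pools were FNDC1 (r = 0.921), OCM3 (0.906) and DKK3 (0.887), and for MYOM2 MYBPC3 itself was among them (0.873), beside LSG1 (0.882) and HBA1 (0.873). MYBPH was most like DYRK2 (0.953 and 0.908) and GPM6A (0.930), and MYBPC2 most like HDAC9 (0.887), MHCY4 (0.799) and PDIA4 (0.786). In MYBPC2 and these 3 genes the layer pool of 6 w was the lowest of the 8. For MYBPC2 that pool held 1 array at 10.67 beside 12.06 and 12.22, so its r values rest largely on 1 pool with a deviating array. For MYOM1, whose probe set was dim, ATF3 stood at 0.659, NT5DC1 at 0.643 and LIPA at 0.638. For each member these are the 3 highest r among 562 to 565 probe sets over 8 pools. How high such values would stand by chance was not tested.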
